A study of Mus musculus with 6 samples.

Results

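The 10 genes described here encode chromatin regulators of histone removal in spermatids, the haploid germ cells that reshape their nuclei into sperm heads. They were picked by gene symbol and known role, with no measured value in the rule, though earlier results of these data were known. They are Brdt, Chd5, Camk4, Rnf8, Phf7, Ube2b, Epc1, Kat5, Cdyl and Kdm3a. All 10 were found among the 54532 gene rows of the deposited count table, and all 10 were among the 19320 genes that passed the low-count filter. The table holds RNA sequencing read counts from whole mouse testis in 6 libraries, 3 from 1700052I22Rik-KO testes and 3 from wild-type (WT) testes. 1700052I22Rik is a testis long non-coding RNA gene that the study placed in the regulation of spermatid chromatin condensation. The labels give no strain, age or deleted part of the gene, nor whether each library is its own animal. The p-values therefore cover the spread among these libraries, which may be technical.

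In the elongating spermatid most nucleosomes are taken apart, transition proteins bind the DNA for a time, and protamines then pack it tightly. Before eviction the histones are heavily acetylated, crotonylated and ubiquitylated. Several proteins that write or read these marks have been reported as needed for normal removal in mice.

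Library totals ran from 17635045 to 18117593 counts. The target had 0 reads in each of the 3 KO libraries, against 185, 175 and 218 reads in WT 1 to WT 3, and it passed edgeR's quasi-likelihood test (Benjamini-Hochberg adjusted p = 4.89e-07). KO 2 and WT 1 stood apart from the other libraries on the leading principal component, at 32.5 and 25.0 against -19.1 to -6.35. That component held 26.01% of the variance. On the second component KO 3 and WT 2 stood apart instead, at 32.03 and -35.24 against -5.21 to 7.97. No fit left out KO 3 and WT 2 together. Markers of spermatogonia, spermatocytes, spermatids, Sertoli cells and Leydig cells were present in all 6 libraries, while the 6 epididymis markers summed to at most 0.284 CPM and Lcn5 and Spink13 were at 0 throughout. CPM here means read counts scaled to library size with TMM factors, and differences are log2 fold changes of KO over WT. Without KO 2 and WT 1, 9 genes and 0 of the 10 regulators were called. In whole-testis RNA, fewer cells of a type and less RNA per cell cannot be told apart.

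None of the 10 regulators passed the test between genotypes, and their log2 fold changes lay between -0.12 and 0.17. At an adjusted p under 0.05 edgeR called 0 of the 10 regulators, against 1 of 19320 genes overall (0.00518%), the target itself. At an unadjusted p under 0.05 there were also 0 of 10, against 4.63% of all tested genes, and DESeq2 and limma-voom likewise called 0. That count of 0 changed to 2 without KO 2, and to 1 without WT 3, without both KO 2 and WT 1, or with no low-count filter, each time with 0 called after adjustment. The KO and WT values overlapped for each of the 10 genes. They did not overlap for 9.32% of all tested genes, 4.69% with KO higher and 4.63% with KO lower. A count of 0 in 10 is near that share. The 95% interval of the fold change lay within 1.5-fold in either direction for 10 of 10 regulators, as it did for 61.6% of all tested genes. Among the 11356 genes at least as abundant as Rnf8, the least abundant of the 10, that share was 93.6%. The median log2 fold change was 0.05 over the 10 regulators, 8 above 0 and 2 below, and -0.0025 over all tested genes.

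**Figure D1:**
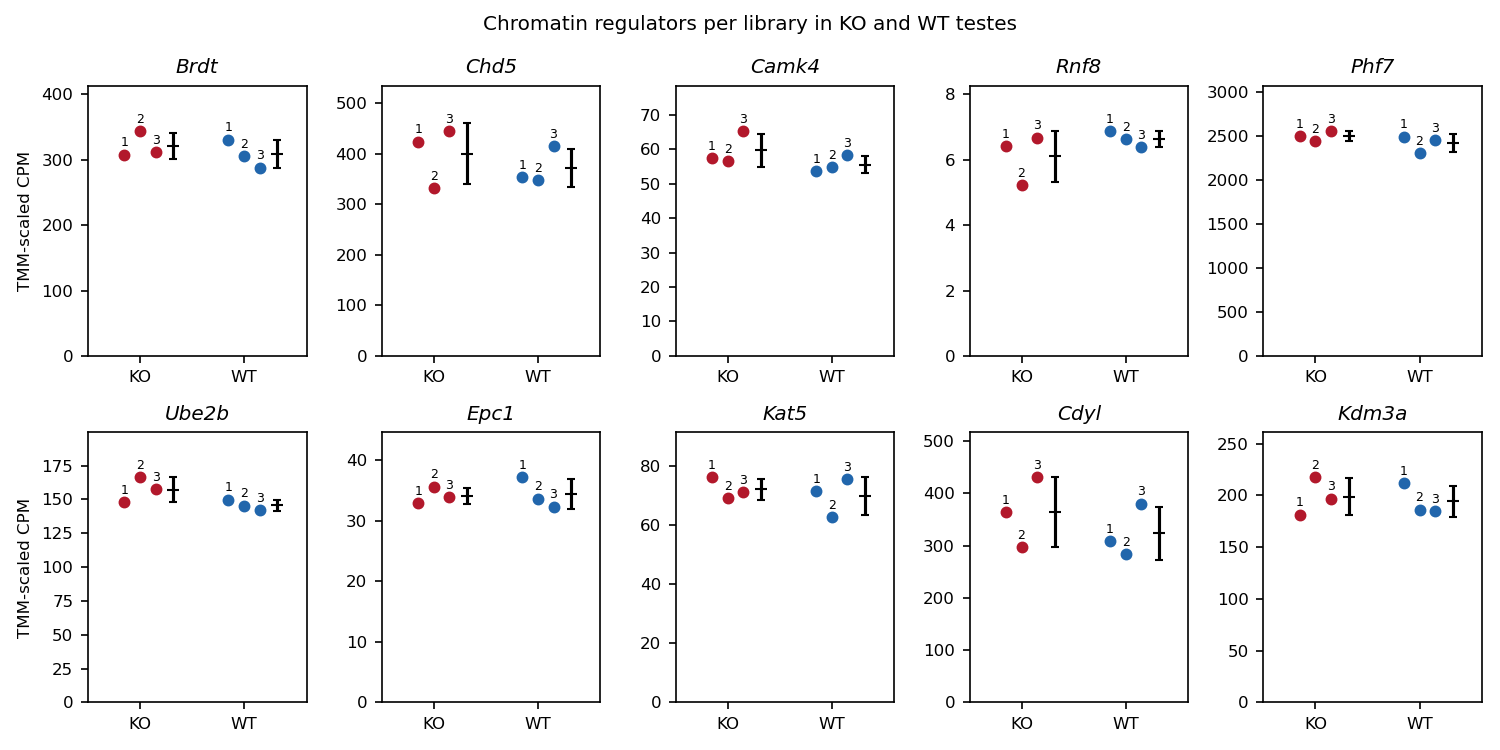
TMM-scaled CPM of the 10 regulators, 1 panel per gene, with KO libraries in red and WT libraries in blue, numbered by replicate; black bars give the mean and SD of 3 libraries and every axis starts at 0. The KO and WT points overlap in each panel, and Chd5 and Cdyl are spread most widely, with coefficients of variation within genotypes of 13.02% and 17.2%.

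The first pair of regulators reads or remodels chromatin. Brdt encodes a testis bromodomain protein that binds acetylated histone tails and is required for histone removal. The gene (ENSMUSG00000029279) is at chr5:107331159-107387058, plus strand, in mm10, the build of all gene positions given here. Brdt was at 308, 344 and 312 CPM in KO 1 to KO 3, against 331, 306 and 288 CPM in WT 1 to WT 3. The highest value was in KO 2 and the lowest in WT 3, and the groups overlapped. The means were 321 ± 19.9 CPM in KO and 308 ± 21.5 CPM in WT (SD, n = 3 each), and the log2 fold change was 0.06 (95% interval -0.10 to 0.22, edgeR adjusted p = 0.973).

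Chd5 encodes a chromodomain helicase whose loss in mice impairs histone removal and sperm chromatin packing. It is at chr4:152338651-152390194, plus strand (ENSMUSG00000005045). Chd5 was at 424, 332 and 445 CPM in the KO libraries, against 354, 348 and 416 CPM in the WT libraries. KO 1, KO 3 and WT 3 were high and KO 2, WT 1 and WT 2 were low, so each genotype held both levels. Chd5 had 400.4 ± 60.4 CPM in KO and 372 ± 37.5 CPM in WT (SD, n = 3 each), with a log2 fold change of 0.10 (95% interval -0.11 to 0.32, edgeR adjusted p = 0.967).

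The kinase of the set, Camk4, is a calcium- and calmodulin-dependent kinase that phosphorylates protamine 2 in spermatids (ENSMUSG00000038128, chr18:32939041-33195767, plus strand). Camk4 had 57.3, 56.6 and 65.3 CPM in KO and 53.5, 54.7 and 58.2 CPM in WT. KO 3 was above all the others, and the remaining KO libraries fell within the WT range. Its log2 fold change was 0.11 (95% interval -0.09 to 0.30, edgeR adjusted p = 0.967). Of 5 genes that feed into it, the calmodulin genes and the kinases that activate it, 0 were called and 1 had an unadjusted p under 0.05. This was Calm3, 1 of the 3 calmodulin genes, with 454 ± 26.2 CPM in KO and 508 ± 18.5 CPM in WT (SD, n = 3 each; log2 fold change -0.16, edgeR adjusted p = 0.965). Calm2, another calmodulin gene, stood at 0.12 (edgeR adjusted p = 0.965), and the median over the 5 was 0.03.

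The ubiquitin enzymes spanned the whole range of abundance. Phf7 encodes a protein with a histone-reading PHD finger and ubiquitin ligase activity towards histone H2A, and it was the most abundant of the 10 by a wide margin. The gene (ENSMUSG00000021902, chr14:31237689-31251317, minus strand) held between 59.8% and 62.0% of all reads of the 10 regulators. By CPM it ranked 9 among the 19320 tested genes, and 71 when reads were also scaled to the deposited gene length. Phf7 was at 2499, 2439 and 2555 CPM in KO, against 2490, 2301 and 2455 CPM in WT. WT 2 was the lowest library and the other 5 lay close together. The means were 2498 ± 58.3 CPM in KO and 2415 ± 100.4 CPM in WT (SD, n = 3 each). Its log2 fold change was 0.05 and its 95% interval, -0.07 to 0.17, was the narrowest of the set (edgeR adjusted p = 0.967).

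Ube2b encodes the ubiquitin-conjugating enzyme HR6B, whose loss makes male mice infertile (ENSMUSG00000020390, chr11:51985497-52000762, minus strand). It had 148, 166 and 158 CPM in KO and 149.8, 145 and 142 CPM in WT. KO 1 lay among the WT libraries, and KO 2 and KO 3 were above all of them. Ube2b had the smallest unadjusted p of the 10 in edgeR's test across all genes, 0.167, with a log2 fold change of 0.11 (95% interval -0.05 to 0.27, adjusted p = 0.965). Rnf8 encodes a RING-finger ubiquitin ligase that acts at DNA breaks and on histones of the silenced sex chromosomes, and a role in histone removal has been reported in mice (ENSMUSG00000090083, chr17:29614790-29641664, plus strand). It was scarce, with 114, 92 and 119 reads in KO 1 to KO 3 and 124, 119 and 116 reads in WT 1 to WT 3. These were 6.41, 5.22 and 6.68 CPM in KO and 6.88, 6.63 and 6.39 CPM in WT, with KO 2 alone below the rest. The log2 fold change of Rnf8 was -0.12 (95% interval -0.47 to 0.23, edgeR adjusted p = 0.975), and without KO 2 it was -0.014. Its coefficient of variation within genotypes was 9.05%, where counting error alone gives 9.37% at this depth.

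The level of Rnf8 carries a further limit. In GENCODE M21 it shares 1542 exonic bases, 13.2% of its exons, with the same-strand protein-coding gene Gm28043, which held 37 reads over the 6 libraries. The sources used here do not say how reads common to both genes were counted. The deposited length of Rnf8 is 3178 bases, against 11703 exonic bases in that annotation.

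Partners of the ubiquitin enzymes were read from a list of 9 genes of histone ubiquitylation and removal. In the fit over all genes 0 were called higher and 0 lower, and 2 had an unadjusted p under 0.05, with a list median log2 fold change of 0.00169. Rnf168, a ligase that extends the histone mark begun by Rnf8, had 32.5, 34.8 and 37.0 CPM in KO and 31.0, 26.9 and 26.97 CPM in WT. Its groups did not overlap, which held for 1 of the 9 genes and for 9.32% of all tested genes. The log2 fold change of Rnf168, 0.30 (95% interval 0.08 to 0.52), did not pass over all genes (edgeR adjusted p = 0.965). H2afx, encoding the histone variant marked at DNA breaks, had 62.5, 55.3 and 49.7 CPM in KO and 59.4, 79.7 and 63.5 CPM in WT (log2 fold change -0.27, 95% interval -0.52 to -0.03, edgeR adjusted p = 0.965).

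Kat5 and Epc1 encode parts of the NuA4/TIP60 acetyltransferase complex, Kat5 the enzyme that acetylates histones and Epc1 a scaffold subunit, and the complex is needed for histone acetylation before removal. Kat5 (ENSMUSG00000024926) is at chr19:5603017-5610094 and Epc1 (ENSMUSG00000024240) at chr18:6435951-6516108, both on the minus strand. Kat5 had 76.2, 69.3 and 71.2 CPM in KO and 71.6, 62.8 and 75.5 CPM in WT, with KO 1 and WT 3 close together at the top. Its log2 fold change was 0.05 (95% interval -0.15 to 0.24, edgeR adjusted p = 0.977). Kat5 shares 426 exonic bases, 12.1% of its exons in GENCODE M21, with Rnaseh2c on the other strand. Over all libraries Rnaseh2c held 2328 reads, against 7633 for Kat5. The strand setting of the counting is not known, so part of the Kat5 reads may belong to that neighbour. Epc1 had 32.9, 35.6 and 33.8 CPM in KO and 37.1, 33.6 and 32.3 CPM in WT. Both the highest and the lowest value of Epc1 were in WT, and its log2 fold change was -0.0099 (95% interval -0.22 to 0.20, edgeR adjusted p = 0.995). Epc1 shares 322 exonic bases, 7.20% of its exons, with the antisense gene Gm28529, which held 94 reads.

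Of 14 further subunits of that complex, 0 were called higher or lower, 4 had a log2 fold change above 0 and 10 below, and the median was -0.05. Ruvbl1, an ATPase of the complex, was at 39.6 ± 4.26 CPM in KO and 46.8 ± 3.84 CPM in WT (SD, n = 3 each; log2 fold change -0.24, unadjusted p = 0.0346 and adjusted p = 0.965 in edgeR). Vps72, a subunit that binds the variant histone H2A.Z, stood at -0.22 (edgeR adjusted p = 0.965). Ruvbl1, with the scaffold Epc1 and the enzyme Kat5 beside it, was the only one of these 16 genes with an unadjusted p under 0.05 in edgeR. The 12 other histone acetylation and methylation enzymes had a median of -0.05 and 0 calls, and 0 had an unadjusted p under 0.05. Crebbp, an acetyltransferase, had 26.7, 27.7 and 27.4 CPM in KO and 31.2, 33.5 and 28.8 CPM in WT, values that did not overlap (log2 fold change -0.19, 95% interval -0.41 to 0.02, edgeR adjusted p = 0.965). Groups did not overlap for 2 of these 12 enzymes, against 9.32% of all tested genes. Dot1l, a histone methyltransferase, stood at -0.15 (edgeR adjusted p = 0.965).

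Cdyl and Kdm3a act on other marks. Cdyl encodes a chromodomain protein that removes the substrate for histone crotonylation, and it had the largest log2 fold change of the 10 (ENSMUSG00000059288, chr13:35659833-35874063, plus strand). Cdyl was at 364, 297 and 430.1 CPM in KO, against 308, 283 and 379.9 CPM in WT. As with Chd5, the high libraries were KO 3, WT 3 and KO 1. The means were 364 ± 66.4 CPM in KO and 324 ± 50.3 CPM in WT (SD, n = 3 each), and the log2 fold change was 0.17 (95% interval -0.09 to 0.43, edgeR adjusted p = 0.965). Without KO 2 or without WT 3 it was 0.30, and without KO 3 it was 0.03, with no call in any of these fits. Without both KO 2 and WT 1 it was 0.26 for Cdyl and 0.19 for Chd5, again with no call. Kdm3a encodes a histone demethylase that in mice is required for expression of Tnp1 and Prm1 (ENSMUSG00000053470, chr6:71588972-71632990, minus strand). It had 182, 217 and 197 CPM in KO and 212, 186 and 185 CPM in WT, with KO 2 and WT 1 the highest. Its log2 fold change was 0.03 (95% interval -0.15 to 0.21, edgeR adjusted p = 0.986).

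**Figure D2:**
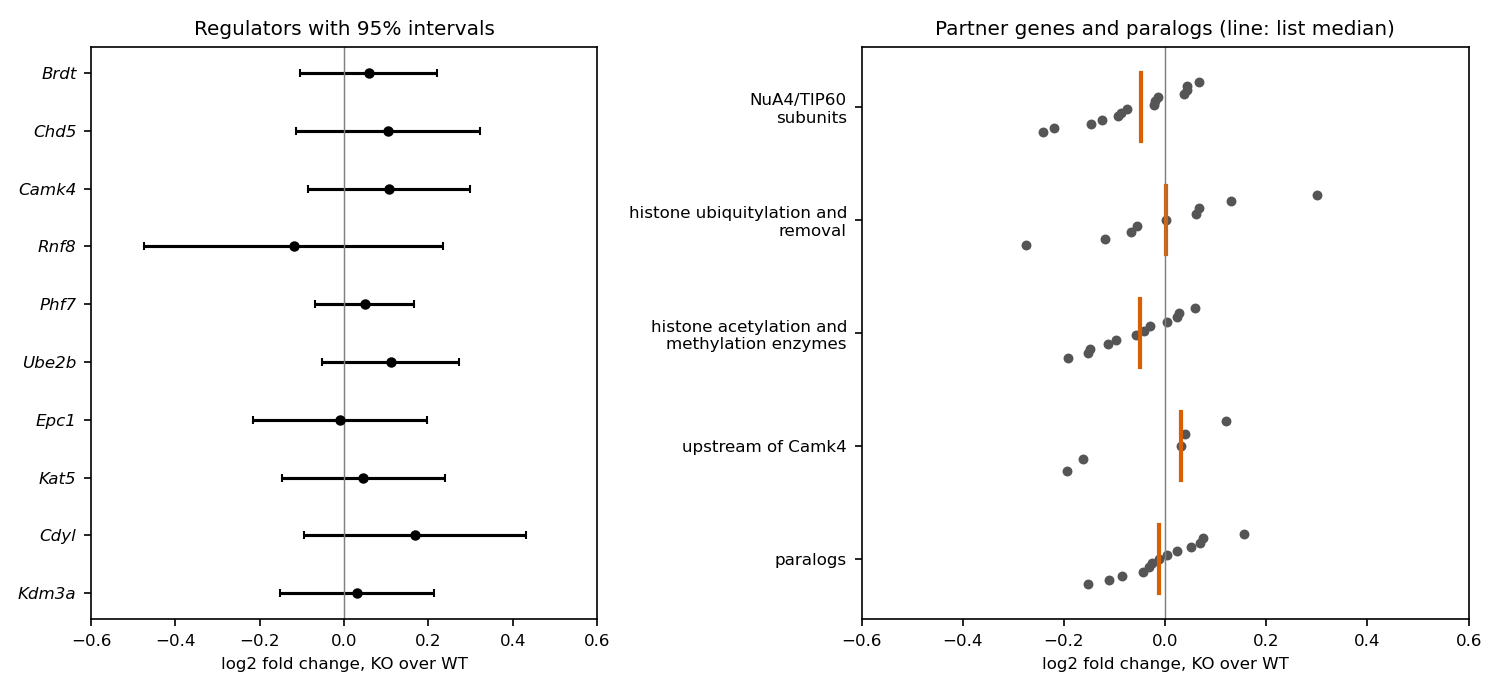
Log2 fold changes of KO over WT from edgeR. On the left each point is 1 regulator with its 95% interval, and all 10 intervals cross 0; on the right each grey point is a gene of a partner list and each orange line is the list median, which lies between -0.05 and 0.03 in all 5 lists.

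Within genotypes the 10 genes differed in how much they varied from library to library. The coefficient of variation within genotypes was 17.2% for Cdyl and 13.02% for Chd5, and between 3.34% and 9.05% for the other 8. The median over the 11356 genes at least as abundant as Rnf8 was 8.72%. Of those genes 9.20% varied more than Cdyl and 21.6% more than Chd5, while 95.4% varied more than Phf7. Counting error alone gives 1.28% for Cdyl and 1.203% for Chd5. The highest library was 1.52 times the lowest for Cdyl and 1.34 times for Chd5, against 1.11 times for Phf7.

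The libraries fell into recurring orders. Brdt, Kdm3a, Epc1 and Ube2b each had their 3 highest values in KO 2, KO 3 and WT 1. Chd5, Cdyl and Camk4 each had theirs in KO 1, KO 3 and WT 3. Neither set of 3 libraries is a genotype, and how many of all tested genes share either set was not counted. The summed CPM of 6 elongating spermatid markers was 9139, 9857 and 9466 in KO 1 to KO 3. In WT 1 to WT 3 it was 9389, 9062 and 8787. This sum too was highest in KO 2, KO 3 and WT 1. Other germ cell genes did not follow that order. The sums of 6 spermatocyte and 6 round spermatid markers were highest in WT 2, at 2115 and 1258 CPM. The transition protein and protamine genes given below were all lowest in KO 2. The summed CPM of 6 Leydig cell markers was 616, 226 and 415 in KO and 207, 812 and 633 in WT, lowest in KO 2 and WT 1. Between genotypes, 6 of 6 Leydig cell markers had a log2 fold change below 0 (median -0.41), 1 of them with an unadjusted p under 0.05. The same held for 6 of 6 macrophage markers (median -0.39), 4 of them with an unadjusted p under 0.05, and for 3 of 3 tested blood markers (median -0.46), 1 of them with such a p. Of these 3 lists 0 genes were called by edgeR after adjustment. Other lists were mixed. Of 6 peritubular and endothelial markers 3 were above 0 and 3 below (-0.44 to 0.41), 2 of them with an unadjusted p under 0.05. Of 6 spermatogonia markers 2 were above 0 and 4 below, 1 with such a p. Of 6 Sertoli cell markers 2 were above 0 and 4 below, 0 with such a p. Macrophage markers summed to 42.9 to 54.4 CPM in KO and 49.5 to 74.1 CPM in WT. The part of these marker differences in the values of the 10 regulators was not tested.

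Pearson correlations of log2 CPM over the 6 libraries were computed for all 45 pairs of the 10 genes, and after Benjamini-Hochberg adjustment 0 passed 0.05 in exact permutation tests, the smallest adjusted p being 0.219. Before adjustment 6 pairs had p under 0.05, and 26 of the 45 coefficients were above 0. Brdt and Kdm3a had r = 0.90 and Spearman's rho = 0.83 (two-sided exact permutation p = 0.0139 and 0.0583; adjusted 0.219 and 0.328). Without KO 2 and WT 3, the libraries farthest from the median of Brdt, r was 0.94, and on deviations from the genotype means it was 0.92. Without KO 2 and WT 1, the highest libraries of both genes, r was 0.41, lower than over all 6 libraries. Leaving them out also narrows the range of both genes, so this value cannot show that the relation rests on them. Epc1 and Kdm3a had r = 0.90 and rho = 0.89 (exact permutation p = 0.0194 and 0.0333; adjusted 0.219 and 0.300), and r was 0.68 without KO 2 and WT 1. Brdt and Epc1 had r = 0.87 and rho = 0.89 (exact permutation p = 0.0264 and 0.0333; adjusted 0.238 and 0.300), and r was 0.97 without KO 2 and WT 3 and 0.86 without KO 2 and WT 1. Camk4 and Cdyl had r = 0.87 and rho = 0.83 (exact permutation p = 0.0111 and 0.0583; adjusted 0.219 and 0.328), with r = 0.90 without KO 3 and WT 1 and 0.89 without KO 2 and WT 1. Many other genes had higher coefficients with the same regulators. Among 19319 other genes ordered by r with Brdt, Kdm3a ranked 521 and Epc1 766. By r with Epc1, Kdm3a ranked 365, and by r with Camk4, Cdyl ranked 331. Of the 6 pairs, 2 involve Chd5, paired with Cdyl and with Camk4. The values of Chd5 fell into separate sets, 332 to 354 CPM in 3 libraries and 416 to 445 CPM in the other 3. A coefficient pooled over such sets depends largely on the step between them. With that limit, Chd5 and Cdyl had the largest r of the 45 pairs, 0.96 (exact permutation p = 0.0153, adjusted 0.219). Their r was 0.97 without KO 2 and WT 1, and Cdyl ranked 106 by r with Chd5. Chd5 and Camk4 had r = 0.76 (exact permutation p = 0.0472, adjusted 0.320). Camk4 had a gap too, with KO 3 alone above the rest.

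**Figure D3:**
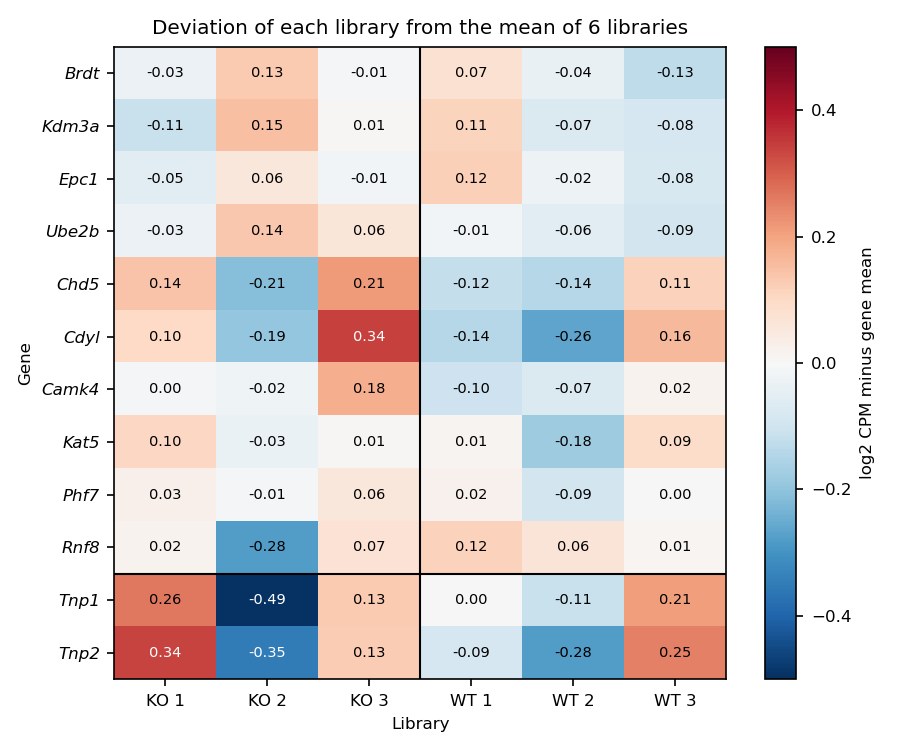
Log2 CPM of each library minus the mean of the gene over 6 libraries, red above and blue below, with KO libraries left of the line, WT libraries right of it, and Tnp1 and Tnp2 below the 10 regulators. KO 2 is at 0.13 for Brdt and -0.21 for Chd5, and Cdyl ranges from -0.26 in WT 2 to 0.34 in KO 3.

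The transition protein genes Tnp1 and Tnp2, whose products replace the evicted histones, were set beside the regulators. Tnp1 was at 875, 517 and 796 CPM in KO and 728, 674 and 842 CPM in WT. Tnp2 was at 4453, 2766 and 3847 CPM in KO and 3323, 2905 and 4205 CPM in WT. Their 3 highest libraries were KO 1, KO 3 and WT 3, those of Chd5, Cdyl and Camk4, and both were lowest in KO 2, at -0.49 and -0.35 relative to their mean log2 CPM over 6 libraries. The protamine genes Prm1 and Prm2 were also lowest in KO 2, but their 3 highest libraries were KO 1, WT 1 and WT 3.

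Upstream sequences are shown for Chd5 with Cdyl and for Brdt with Kdm3a, because each pair shared its 3 highest libraries. Ube2b, which had the same 3 highest libraries as Brdt and Kdm3a, is not shown, and its window held 0 CCAAT and 1 TGACG. Epc1 shared those libraries too, and Camk4 shared those of Chd5 and Cdyl, but neither had a promoter entry. The sequences shown come from the RefSeq start nearest to the 5′ end of each gene on GRCm38.p6. They were cut to the bases before both the RefSeq and the deposited start. All are written 5′ to 3′ on the gene's own strand. Capitals mark the CCAAT box, the X-box and the motif TGACG on either strand.
Chd5, chr4:152338401-152338650, plus strand: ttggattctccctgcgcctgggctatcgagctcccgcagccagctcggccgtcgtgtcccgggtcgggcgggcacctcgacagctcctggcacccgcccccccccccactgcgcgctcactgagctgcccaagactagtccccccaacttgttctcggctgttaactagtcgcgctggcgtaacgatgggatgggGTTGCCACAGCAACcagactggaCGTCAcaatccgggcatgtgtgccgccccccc
Cdyl, chr13:35659612-35659832, plus strand: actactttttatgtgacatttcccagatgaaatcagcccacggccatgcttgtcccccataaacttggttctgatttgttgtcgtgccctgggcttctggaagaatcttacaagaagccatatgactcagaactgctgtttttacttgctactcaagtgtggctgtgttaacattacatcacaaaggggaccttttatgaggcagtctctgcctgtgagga
Brdt, chr5:107330944-107331158, plus strand: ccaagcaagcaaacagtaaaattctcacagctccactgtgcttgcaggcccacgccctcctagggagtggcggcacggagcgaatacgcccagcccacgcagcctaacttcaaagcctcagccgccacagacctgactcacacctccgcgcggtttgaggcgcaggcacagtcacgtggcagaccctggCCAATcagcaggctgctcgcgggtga
Kdm3a, chr6:71632991-71633167, minus strand: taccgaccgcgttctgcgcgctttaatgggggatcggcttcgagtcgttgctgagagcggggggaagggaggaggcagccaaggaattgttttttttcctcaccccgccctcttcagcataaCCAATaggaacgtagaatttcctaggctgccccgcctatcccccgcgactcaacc

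Brdt and Kdm3a each held 1 CCAAT box in the sequence shown. Over the full 250 bases before its RefSeq start Kdm3a held 2. The shares given below use the full 250 bases. Chd5 held 1 X-box, the inverted repeat bound by RFX transcription factors, and 1 TGACG, the core of the cyclic AMP response element, on the minus strand. The Cdyl window held none of the marked motifs. Cdyl and Kdm3a each have 3 RefSeq starts and Chd5 has 2, so for these genes another may be in use in testis. Brdt has 1. The Cdyl window also overlaps the annotated gene Gm48707. Over the 250 bases before 32817 mouse starts, 33.8% held CCAAT, 17.7% TGACG, 10.4% GTTGCC and 3.80% AACNGTT. The GC box GGGCGG was in 32.7% of them and before 4 of the regulators, and TATAAA was in 12.4% and before 0. The X-box, searched after its letters were seen in Chd5, was in 39 of them, 0.119%, and it includes the GTTGCC motif. Among the 8 of the 10 regulators with an entry, CCAAT was before 4, TGACG before 4, GTTGCC before 1 and AACNGTT before 0, and the full element TGACGTCA, which includes TGACG and was found before 1.55% of starts, was before 0. A match of letters is a description and shows no binding.

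Levels of different genes were compared as RPKM, reads per kilobase of the deposited gene length, scaled to library size as CPM is. The order of the mean levels was the same in both genotypes. Phf7 stood first with 473 ± 11.0 RPKM in KO and 457 ± 19.0 RPKM in WT (SD, n = 3 each). Cdyl followed with 82.8 ± 15.1 RPKM in KO and 73.7 ± 11.5 RPKM in WT, then Ube2b with 74.0 ± 4.28 RPKM in KO and 68.5 ± 1.88 RPKM in WT, and Brdt with 62.8 ± 3.89 RPKM in KO and 60.3 ± 4.21 RPKM in WT. The ranges of Cdyl and Ube2b over the 6 libraries overlapped, as did those of Ube2b and Brdt. Chd5 and Kat5, which also overlapped, had 41.8 ± 6.31 and 35.97 ± 1.78 RPKM in KO and 38.9 ± 3.91 and 34.8 ± 3.24 RPKM in WT. Kdm3a was at 24.1 RPKM in KO and 23.6 RPKM in WT, Epc1 at 7.62 RPKM in KO and 7.67 RPKM in WT, Camk4 at 4.84 RPKM in KO and 4.50 RPKM in WT, and Rnf8 at 1.92 RPKM in KO and 2.09 RPKM in WT. For 7 of the 10 the deposited length equals the exonic length in GENCODE M21. With the M21 length Camk4 would be at 18.3 RPKM in KO and 17.0 RPKM in WT, Kat5 at 20.6 RPKM in KO and 19.9 RPKM in WT, and Rnf8 at 0.522 RPKM in KO and 0.567 RPKM in WT, which puts Camk4 above Epc1 and Kat5 below Kdm3a.

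For 8 of the regulators 1 close paralog was set for comparison by RPKM. Brd2, a bromodomain gene related to Brdt, was at 53.6 RPKM in KO and 56.9 RPKM in WT, near the level of Brdt. The deposited length of Brd2 is 7285 bases, against 7826 exonic bases in GENCODE M21. Chd5 was 1.23-fold above Chd4, the broadly expressed remodeller, in KO and 1.13-fold above it in WT, so both transcripts were of similar level. Phf7 exceeded G2e3, a related PHD-finger ligase gene, 94.8-fold in KO and 89.4-fold in WT. The enzyme Ube2b exceeded its X-linked paralog Ube2a 10.2-fold in KO and 9.65-fold in WT.

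Cdyl exceeded Cdyl2 14.1-fold in KO and 11.4-fold in WT, and Kdm3a exceeded Kdm3b 13.3-fold in KO and 12.9-fold in WT. Epc1 was 1.86-fold above Epc2 in KO and 1.94-fold above it in WT. Camk4 exceeded Camk1 11.9-fold in KO and 11.7-fold in WT, and Rnf8 stood at 0.138 of Chfr, another FHA and RING ligase gene, in KO and 0.159 of it in WT. The ratios of Camk4 and of Rnf8 rest on deposited lengths that differ from GENCODE M21. With M21 lengths Camk4 would be 44.9-fold above Camk1 in KO and 44.3-fold in WT, and Rnf8 would stand at 0.0375 of Chfr in KO and 0.0432 of it in WT. Of the 8 log2 ratios 0 passed a test between genotypes, with adjusted p from 0.686 to 0.900 in two-sided exact permutation tests, for which the smallest p that 3 against 3 libraries allows is 0.1. Over 13 paralogs 0 were called in edgeR and 0 had an unadjusted p under 0.05, and their median log2 fold change was -0.012. The lowest p among them were those of Chd3, a remodeller gene, at -0.11, and Brd2 at -0.09 (both edgeR adjusted p = 0.967).

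**Figure D4:**
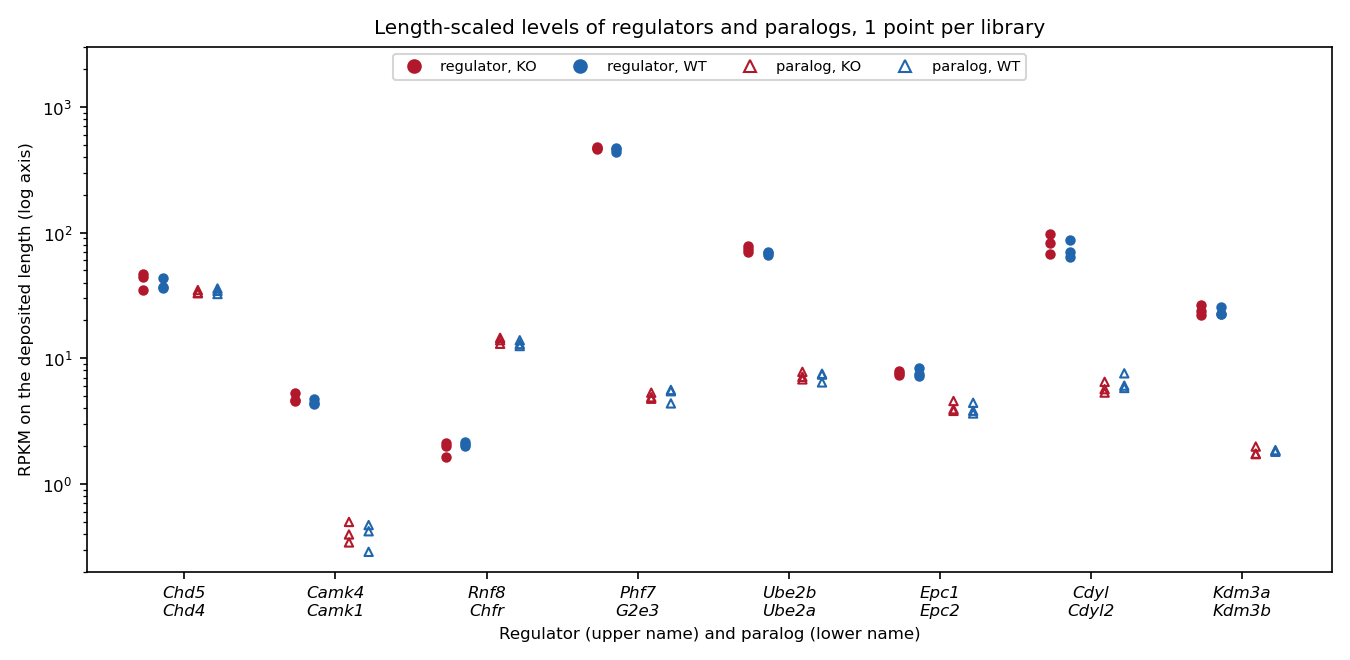
RPKM on a log axis for 8 regulators (filled circles) and their paralogs (open triangles), 1 point per library, with KO in red left of WT in blue. Phf7 is 94.8-fold above G2e3 in KO and 89.4-fold in WT, Chd5 and Chd4 lie close together, and Rnf8 is the only regulator below its paralog among the 8 shown.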

How the data were processed

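Total RNA was taken up in TRIzol and sequenced from VAHTS mRNA-seq libraries, per the labels' protocols. The submitters' processing notes name HISAT2 2.0.0 and the build mm10. The table that the authors deposited holds raw read counts for each Ensembl gene and a gene length in bases, per the file headers. Which counting tool, annotation release and strand setting were used is unknown here. Columns were matched to samples by title, and 0 were left unmatched.

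Genes were kept with filterByExpr (minimum count 10, minimum total 15), which left 19320 of 54532 rows. KO and WT were compared with edgeR 4.0.16 (TMM, glmQLFit, glmQLFTest) on all 6 libraries with no covariate, adjusted over all tested genes by Benjamini-Hochberg at 0.05, in R 4.3.3. limma 3.58.1 and DESeq2 1.42.0 served as alternatives. Intervals are 95% intervals from moderated standard errors. Correlations used log2 CPM with a prior count of 0.5. Depth, 17635045 to 18117593 counts per library, sets the counting error of scarce genes such as Rnf8. The edgeR script was tested on simulated data.

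The regulators, partner lists, paralogs and the WT 1 and KO 2 alternative were chosen with earlier results of these data known. Named were all 10 regulators, the paralogs paired with them, and from each list the 2 genes with the smallest p and any with p under 0.05; Brd2 was also compared in level. 1 planned paralog comparison is not reported here.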

Additional observations from a re-analysis of the deposited data

How the results depend on the processing

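In 14 alternatives 0 of the 10 regulators were called, and the smallest adjusted p was 0.524, for Cdyl without KO 2. The number of genes called was 1 with DESeq2 size factors in edgeR, with library size alone, with a mean of at least 5 CPM, with limma-voom and in the replicate block fit. It was 2 with DESeq2, 50 with no low-count filter and 9 without WT 1 and KO 2 together, and it ranged from 1 to 3 with 1 library left out; the cause was not tested. The direction turned for Rnf8 (0.011) and Epc1 (0.021) without WT 1 and KO 2 together, with log2 fold changes near 0 in each case. Leaving out 1 library at a time gave log2 fold changes of -0.052 to 0.049 for Epc1, -0.027 to 0.105 for Kat5 and -0.034 to 0.097 for Kdm3a, each crossing 0. They ran from 0.021 to 0.23 for Chd5, 0.03 to 0.30 for Cdyl, -0.19 to -0.014 for Rnf8, 0.012 to 0.11 for Brdt, 0.037 to 0.15 for Camk4, 0.014 to 0.070 for Phf7 and 0.073 to 0.15 for Ube2b. The log2 ratio difference ranged from -0.088 to 0.206 for Camk4 over Camk1. Library-size scaling gave 0 of 45 pairs past adjustment. RPKM and ratios with GENCODE M21 lengths, and correlations without KO 2 and WT 1, were added after the data were seen.

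The replicate numbers are not said to mark shared animals or batches. Same-numbered KO and WT libraries had correlations of their deviations of -0.16, -0.04 and 0.11, so the numbers were not taken as pairs; with the replicate number as a block 1 gene and 0 regulators were called. Counting error limits Rnf8, whose interval reaches 0.720 and 1.18 of the WT level, and smaller changes than the intervals given are not detectable at this depth and replication.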
